A study of Mus musculus with 5 samples.

Results

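The mitochondrial ribosomal protein genes are the 76 genes, of 23234 gene symbols, whose symbol begins with Mrpl or Mrps followed by a number. They were followed through RNA-seq profiles of 5 cell populations sorted from mouse bone marrow. All mice were C57BL/6, 7 weeks old and +/Ym1Venus, that is, they carried 1 reporter allele in which the fluorescent protein Venus marks expression of Ym1 (Chi3l3), a chitinase-like secreted protein. Naïve monocytes (Ly6C+ CD115+ Venus-) and naïve neutrophils (Ly6G+) came from untreated mice. Ym1+Ly6Chi monocytes (Ly6C+ CD115+ Venus+), Ym1-Ly6Chi monocytes (Ly6C+ CD115+ Venus-) and LPS neutrophils (Ly6G+) came from mice 48 h after an intravenous dose of 100 µg/mouse of LPS, the bacterial cell wall component that triggers Toll-like receptor 4. The reporter allele was carried by every group, controls included.

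There was 1 library per condition, so that no difference has a replicate check and none could be tested. Each value compares a pair of libraries and may hold differences between mice, sorts or preparations. How many mice went into each library is unknown.

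Mitochondria keep a ribosome of their own, the mitoribosome, which translates the few messages of mitochondrial DNA. All of these encode membrane subunits of the respiratory chain and ATP synthase. The ribosomal RNAs of the mitoribosome come from mitochondrial DNA, whereas its proteins, those with the Mrpl (large subunit) and Mrps (small subunit) symbols among them, are encoded in the nucleus and imported. Some have a counterpart in the bacterial ribosome and others are specific to mitochondria. Neutrophils are known as cells with few mitochondria and strong glycolysis, and monocytes as cells that respire more.

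By the composition of the particle, 26 of the 76 genes encode small-subunit proteins and 49 encode large-subunit proteins. The latter include Mrps30 and Mrps18a, whose proteins sit in the large subunit in spite of their symbols. The remaining gene, Mrps36, carries the symbol but its protein is a component of the 2-oxoglutarate dehydrogenase complex. A bacterial counterpart was listed for 46 of the proteins, and 29 were listed as mitochondria-specific. Of Mrps18a, Mrps18b and Mrps18c, which are paralogues of bacterial S18, only Mrps18c was listed with a bacterial counterpart. The genes lie on 17 chromosomes with at most 10 on the same one (chromosome 11). Their median transcript length in GENCODE M21 was 1038 bases, against 2048 bases over 18529 protein-coding genes of the files. In that annotation 17 of the 76 genes share at least 10% of their exon bases with another gene, 5 of them on the same strand and 13 on the other, and 6 have a near-identical copy, so that their values are less certain. Such a limit is named beside a gene where it is large.

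Promoter sequence was matched in RefSeq (GRCm38.p6) for 67 of the 76 genes. In the window from 250 bases before to 50 bases after the start, the ETS core CCGGAAG (the letters bound by GABPA and other ETS factors), searched on both strands, stood in 24 of 67 promoters (35.8%). It stood in 12.8% of the 15675 promoters of all genes in the files and in 21.5% of the 8006 genes with at least 1 FPKM in any library. FPKM is the number of fragments per kilobase of transcript, scaled to the size of the library, so that it corrects for gene length. The YY1 core AAGATGG was found in 13 promoters (19.4%), against 7.34% of all genes and 8.78% of those with at least 1 FPKM. For the NRF1 core GCGCATG the count was 8 (11.9%, against 5.49% and 8.29%), and for the E-box CACGTG it was 5 (7.46%, against 9.29% and 12.1%). None of the 4 motifs was present in 29 of 67 (43.3%), against 70.6% and 58.5%. The cytosolic ribosomal protein genes held the ETS core at a similar share of 41.7% (60 promoters), and the respiratory chain genes held it at 24.2% and the NRF1 core at 19.7% (66 promoters). The median naïve neutrophil minus monocyte difference, described below in log2 units, was -1.26 in the 24 genes with the ETS core and -1.68 in the 43 without it. For the YY1 core it lay the other way, at -2.01 in the 13 genes with it and -1.37 in the 54 without it. For the NRF1 core the values were -1.20 (8 genes) and -1.69 (59), and for the E-box -1.60 (5) and -1.54 (62). These splits were not tested. A match of letters is a description and not a binding site.

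The 250 bases before the start are shown for 4 genes. Mrpl53 and Mrpl52 had the smallest and the largest difference between naïve neutrophils and monocytes. For Mrpl53, 87.97% of the exon bases are shared with another gene, Gm42688, on the same strand. Mrpl33 was the highest of all members, and Mrps18b had the largest LPS difference in monocytes. Motif matches are in capitals and sequences run 5′ to 3′ on the strand of the gene.
Mrpl53 (chr6:83108858-83109107, plus strand, both matches ETS): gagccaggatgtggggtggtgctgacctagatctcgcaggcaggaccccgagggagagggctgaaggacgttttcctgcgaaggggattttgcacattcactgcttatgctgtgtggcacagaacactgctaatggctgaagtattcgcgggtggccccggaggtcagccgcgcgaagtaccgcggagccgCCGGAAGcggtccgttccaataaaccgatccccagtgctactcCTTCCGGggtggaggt
Mrpl52 (chr14:54426659-54426908, plus strand, YY1 then ETS): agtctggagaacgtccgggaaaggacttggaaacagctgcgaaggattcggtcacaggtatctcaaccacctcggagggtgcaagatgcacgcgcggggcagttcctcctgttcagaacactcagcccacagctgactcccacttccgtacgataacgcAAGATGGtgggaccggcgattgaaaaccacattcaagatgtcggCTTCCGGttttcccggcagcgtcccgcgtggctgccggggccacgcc
Mrpl33 (chr5:31613701-31613950, plus strand, NRF1): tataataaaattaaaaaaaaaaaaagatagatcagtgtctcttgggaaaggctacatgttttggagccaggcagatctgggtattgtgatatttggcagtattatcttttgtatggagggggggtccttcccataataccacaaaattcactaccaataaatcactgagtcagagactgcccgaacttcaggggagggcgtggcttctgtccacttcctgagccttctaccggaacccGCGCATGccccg
Mrps18b (chr17:35916441-35916690, minus strand, NRF1): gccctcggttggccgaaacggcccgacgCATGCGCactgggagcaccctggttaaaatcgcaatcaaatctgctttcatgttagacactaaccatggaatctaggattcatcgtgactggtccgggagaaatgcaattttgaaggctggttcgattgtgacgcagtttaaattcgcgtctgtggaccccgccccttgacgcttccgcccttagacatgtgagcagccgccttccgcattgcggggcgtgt
In Mrpl53 the ETS cores begin 59 and 16 bases before the start. In Mrpl52 the YY1 core begins 91 bases and the ETS core 47 bases before it. The NRF1 core begins 12 bases before the start of Mrpl33 and 222 bases before that of Mrps18b. Both of these genes are also counted with the ETS core, whose match is not within the bases shown.

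The labels were checked against markers of the sorted cells. Ccr2, the chemokine receptor of inflammatory monocytes, was at 434 to 499 FPKM in the 3 monocyte libraries and at 0.986 to 1.13 FPKM in the neutrophil libraries. Csf1r was at 138 to 230 FPKM in monocytes and at 10.5 to 33.9 FPKM in neutrophils. The 6 listed monocyte markers summed to 4419 to 5019 FPKM in monocytes, but still to 1707 and 1974 FPKM in naïve and LPS neutrophils. Of that list, 2 genes were at 100 FPKM or more in each neutrophil library. S100a8 and S100a9, the calprotectin subunits, together took 27.7% and 29.96% of all FPKM in LPS and naïve neutrophils, whereas the shares in the Ym1+, Ym1- and naïve monocyte libraries were 2.39%, 0.309% and 0.172%. Chi3l3 was at 1759 FPKM in Ym1+ and at 386 FPKM in Ym1- monocytes, as the sort fixed. Depth had to be estimated, because the files give no counts. From the steps between low values, the libraries held 44.7% (Ym1- monocytes) to 100% (Ym1+ monocytes) of the depth of the deepest one. By a rough absolute scale from genes with a single transcript, a member gene was covered by a median of about 371, 200.5, 186, 96 and 75 fragments in Ym1+, Ym1-, naïve monocytes, LPS neutrophils and naïve neutrophils.

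All 76 genes were detected in all 5 libraries. Their median level was 27.9 FPKM in naïve monocytes, 39.6 in Ym1- and 31.6 in Ym1+ monocytes, and it was 8.07 in naïve and 9.73 in LPS neutrophils. The whole set took 0.513% of all FPKM in naïve monocytes, 0.689% in Ym1-, 0.589% in Ym1+, 0.153% in naïve neutrophils and 0.181% in LPS neutrophils. At least 1 FPKM was reached by all 76 genes in each monocyte library, by 75 in LPS neutrophils and by 69 in naïve neutrophils.

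**Figure D1:**
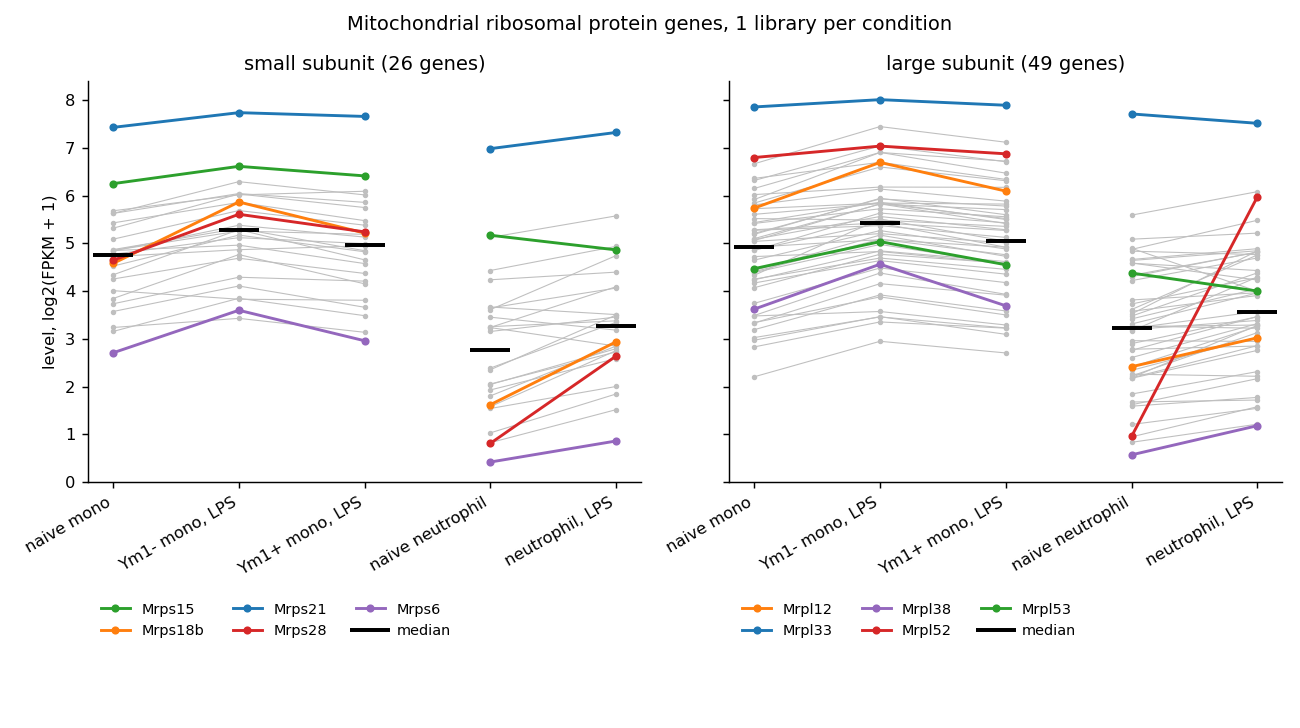
Level of each of 75 mitoribosome protein genes on the y axis, as log2(FPKM + 1), in the 5 libraries on the x axis; left, small subunit, right, large subunit. Each line joins 1 gene within a cell type, black bars are medians and coloured genes are named. The monocyte medians lie above both neutrophil medians, Mrpl33 and Mrps21 stay near the top in every library, and Mrpl52 is near the bottom in naïve neutrophils alone.

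The genes of a particle that holds its proteins in fixed numbers did not have equal mRNA levels. Mrpl33, a protein near the tRNA exit site, was the highest on average over the libraries. Its level was 231 FPKM in naïve monocytes, 257 in Ym1-, 237 in Ym1+, 209 in naïve neutrophils and 182 in LPS neutrophils. On the FPKM scale these levels lay close together. Divided by median-of-ratios size factors they were 179, 202 and 194 in monocytes and 289 and 252 in neutrophils, in the same order, so that neutrophils were then higher. Mrps21, a small-subunit protein with a bacterial counterpart, followed with 171, 212, 201, 126 and 159 FPKM in the same order. Mrps21 has a near-identical copy in the annotation (Gm6181), so its reads may be shared. The next highest genes were Mrpl20, Mrpl18 and Mrpl42, which were between 70.1 and 173 FPKM in monocytes and between 11.3 and 66.8 FPKM in neutrophils.

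At the other end stood Mrps6, with 5.54 FPKM in naïve monocytes, 11.1 in Ym1- and 6.79 in Ym1+ cells and 0.341 and 0.820 in naïve and LPS neutrophils. Mrps6 shares 19.9% of its exon bases on the same strand with Slc5a3 and Gm49711. Mrpl17, Mrpl11, Mrpl35 and Mrps31 were the next lowest, at 3.62 to 10.1 FPKM in monocytes and 0.785 to 3.01 FPKM in neutrophils. The highest gene exceeded the lowest 63.7-fold in naïve monocytes, 38.1-fold in Ym1-, 42.8-fold in Ym1+, 222-fold in LPS neutrophils and 612-fold in naïve neutrophils. The SD of the levels between genes was 1.11, 1.07, 1.11, 1.32 and 1.46 log2 units in the same order. The genes were therefore spread more widely in both neutrophil libraries. At the low end this rests on few fragments, about 3 for Mrps6 in naïve neutrophils, and 8 of the 76 genes had under 20 fragments there. Shorter transcripts had higher levels (Pearson's r = -0.45 and Spearman's rho = -0.47 of mean level with length over 76 genes, a description), whereas the differences below followed length little (r between -0.19 and 0.06).

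The order of the genes was largely shared between the monocyte libraries, with Pearson's r of 0.96 to 0.99 between their log2 levels over 76 genes. Between naïve monocytes and naïve neutrophils r was 0.76, and between the 2 neutrophil libraries it was 0.88. These points share libraries and genes and carry no p-value.

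The first comparison asked how the lineages differed without LPS. In naïve neutrophils all 76 genes were below their level in naïve monocytes, as were 72.8% of all genes. The members stood at a median of 29.2% of the monocyte FPKM. The difference of log2(FPKM + 1) had a median of -1.64 over the members, against -0.79 over the 10944 genes with at least 1 FPKM in either library. At least 2-fold lower were 58 of 76 members (76.3%), against 42.7% of all genes, and 0 were at least 2-fold higher, against 10.8% of all genes. All genes were shifted too, so the scale matters. With median-of-ratios scaling, which sets the median gene near 0 (-0.03), the members' median was -0.86 and 64 of 76 were still lower, but 12 (Mrpl10, Mrpl14, Mrpl20, Mrpl33, Mrpl43, Mrpl44, Mrpl45, Mrpl48, Mrpl53, Mrps18c, Mrps21 and Mrps25) were then above 0. In such sorted bulk samples, fewer expressing cells and less RNA per cell cannot be told apart.

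Markers of other cells and stages differed between the same libraries. All 15 cycling genes were at least 2-fold lower in naïve neutrophils (median -2.08, summed level 275 against 1523 FPKM), as were all 4 azurophil granule genes (median -5.91, 37.96 against 2432 FPKM). All 4 platelet genes were at least 2-fold higher (summed level 50.96 against 11.7 FPKM). None of these 3 lists had a gene at 0 in either library. Both eosinophil genes that passed the limit of 1 FPKM, of 3 listed, were at least 2-fold higher (5.27 against 0.240 FPKM summed). The B cell gene that passed, of 4 listed, was at least 2-fold lower (1.65 against 15.6 FPKM summed over the list). In naïve monocytes 2 eosinophil genes and 1 B cell gene were at 0. Their part in the members' difference was not tested.

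The widest gap was that of Mrpl52, a mitochondria-specific large-subunit protein. It was at 110 FPKM in naïve monocytes, 130 in Ym1- and 116 in Ym1+ cells, at 61.8 in LPS neutrophils and at 0.943 in naïve neutrophils. The naïve neutrophil library stands alone here, at 0.855% of the naïve monocyte level and from about 4 fragments (95% Poisson interval 0.278 to 2.62 FPKM, counting error only). Mrps28, a small-subunit protein, was next with 24.1 FPKM in naïve monocytes and 0.758 in naïve neutrophils (0.300 to 1.78, about 6 fragments). After LPS it was at 47.8 FPKM in Ym1- and 36.8 in Ym1+ monocytes and at 5.24 in neutrophils, so that both neutrophil libraries lay below all monocyte libraries.

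Mrpl12, the stalk protein of the large subunit that is also known to bind the mitochondrial RNA polymerase, had 52.4 FPKM in naïve monocytes, 103 in Ym1- and 67.4 in Ym1+ cells. In naïve and LPS neutrophils it had 4.35 and 7.13 FPKM. Its level in naïve neutrophils was 8.29% of that in naïve monocytes. Mrps2, a core protein of the small subunit, was at 18.1, 24.8 and 19.7 FPKM in the same 3 monocyte libraries and at 1.05 and 2.60 in the neutrophil libraries. Mrpl38, of the central protuberance, was at 11.3, 22.7 and 11.9 FPKM in monocytes and at 0.488 and 1.27 in neutrophils. For each of these genes the lowest monocyte library was above the higher neutrophil library.

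Mrpl42 (101 against 11.3 FPKM in naïve monocytes and neutrophils), Mrps36 (35.98 against 3.65) and Mrps18b (22.9 against 2.08) completed the 8 genes with the widest gap. Mrpl42 has a near-identical copy in the annotation (Gm6419), and Mrps18b shares exon bases with Gm16279 on the other strand. At the narrow end, 3 genes kept over 80% of the monocyte level. Mrpl53, a mitochondria-specific large-subunit protein, was at 21.2 FPKM in naïve monocytes and 19.8 in naïve neutrophils (intervals 17.01 to 26.1 and 16.5 to 23.5, which overlap). Mrpl33 kept 90.3% and Mrpl10, at the base of the stalk, 86.4% (31.95 and 27.6 FPKM). Mrpl10 and Mrpl12 bind each other in the particle, yet they stood near opposite ends of the range. For Mrpl53, 87.97% of the exon bases are shared with Gm42688 on the same strand, so its reads cannot be told from those of that gene.

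By subunit, 23 of 26 small-subunit genes (88.5%) were at least 2-fold lower (median -1.77), as were 34 of 49 large-subunit genes (69.4%, median -1.46), against 42.7% of all genes and their median of -0.79. The ratio of the median small-subunit to the median large-subunit FPKM was 0.882 in naïve monocytes and 0.730 in naïve neutrophils, and 0.898 and 0.792 in Ym1- monocytes and LPS neutrophils. Among genes with a bacterial counterpart 36 of 46 (78.3%) were at least 2-fold lower (median -1.56), and among the mitochondria-specific ones 21 of 29 (72.4%, median -1.85). Whether these groups differ was not tested.

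The same question was asked 48 h after LPS. In LPS neutrophils all 76 genes were again below Ym1- monocytes, as were 72.3% of all genes. The members stood at a median of 28.9% of the Ym1- FPKM. The median difference was -1.66 in log2 units, against -0.74 over 10676 genes. At least 2-fold lower were 64 of 76 (84.2%), against 40.8% of all genes, and 0 were at least 2-fold higher, against 11%. With median-of-ratios scaling the members' median was -0.91, and 7 genes (Mrpl10, Mrpl33, Mrpl43, Mrpl45, Mrpl48, Mrps18c and Mrps21) were above 0. All 15 cycling genes were at least 2-fold lower in LPS neutrophils (median -1.81, summed level 606 against 2468 FPKM), as were 3 of 4 azurophil granule genes (678 against 1837 FPKM). The 2 eosinophil genes that passed the limit of 1 FPKM, of 3 listed, were also at least 2-fold lower (summed level 0.449 against 29.4 FPKM), with Epx at 0 in LPS neutrophils. The B cell gene that passed was at least 2-fold lower too (0.843 against 10.96 FPKM summed). The platelet gene that passed and 1 of 2 erythroid genes were at least 2-fold higher (4.99 against 0.620 and 7.22 against 2.90 FPKM summed). In Ym1- monocytes 3 erythroid, 2 platelet and 3 B cell genes were at 0. Their part in the members' difference was not tested.

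Mrpl38 kept the smallest share, 5.61% of the Ym1- level. Mrpl12 kept 6.94%. Mrpl37, a mitochondria-specific large-subunit protein, was at 37.5 FPKM in Ym1- monocytes and 3.65 in LPS neutrophils. Mrpl2, a core protein near the peptidyl transferase centre, was at 57.1 and 6.72 FPKM, and Mrps26, a small-subunit protein, at 64.6 and 8.10 FPKM. Mrps21, with 74.9%, kept the largest share. Mrpl52 kept 47.4% and was thus no longer apart from the rest.

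**Figure D2:**
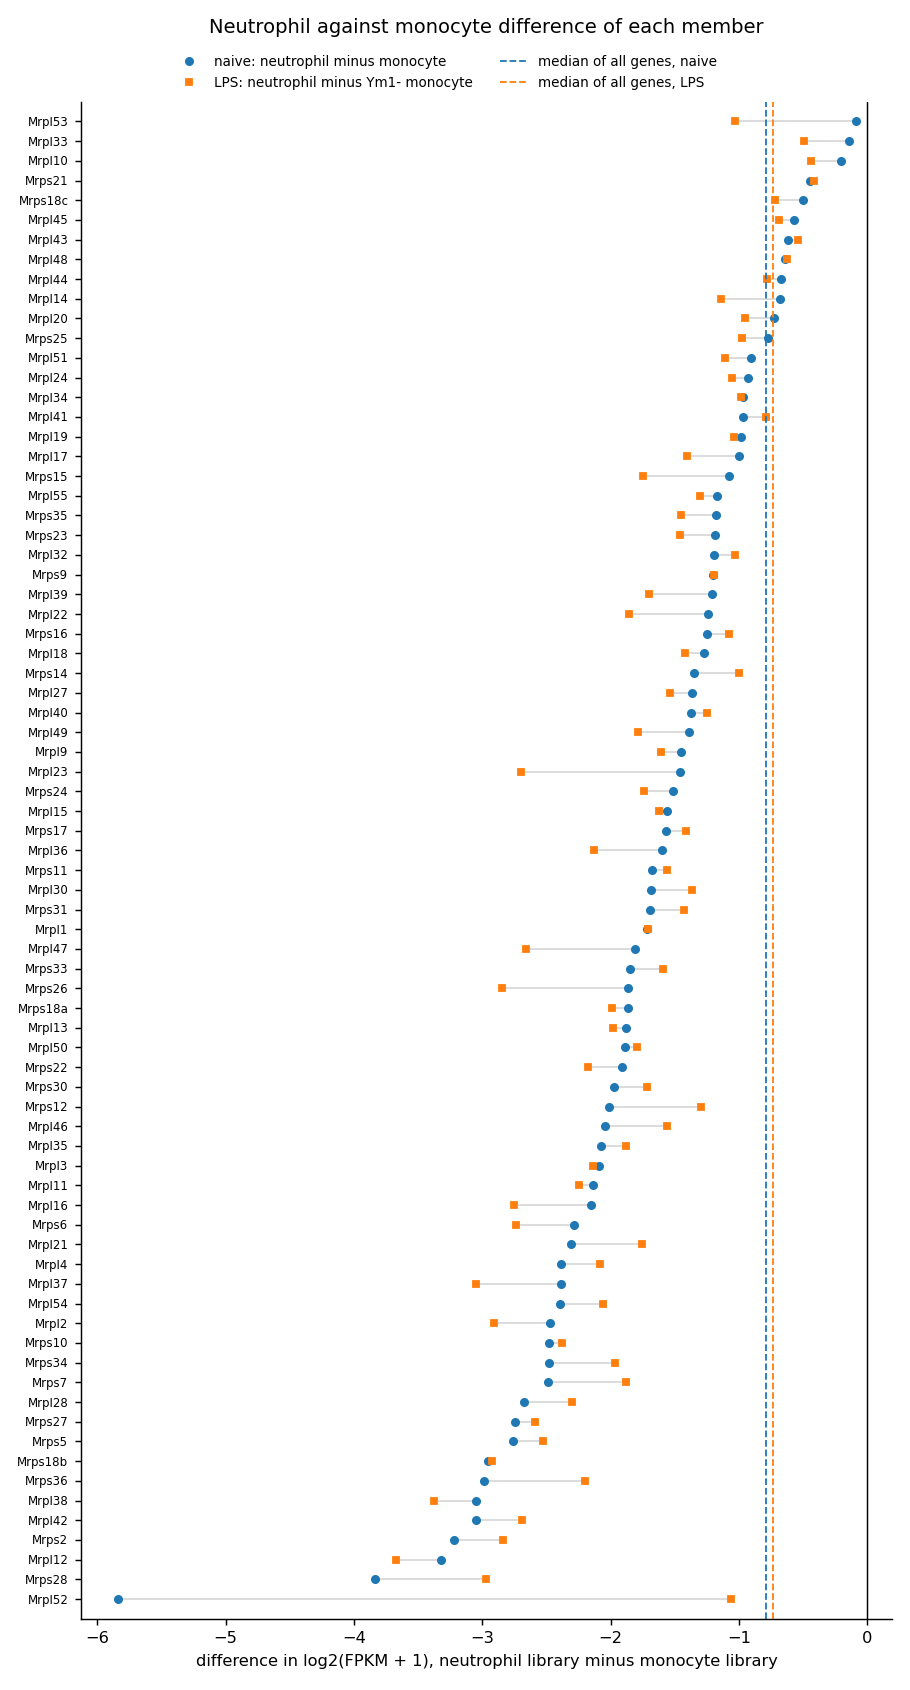
Difference in log2(FPKM + 1) between neutrophil and monocyte library on the x axis for each of the 76 genes on the y axis; circles are the naïve pair, squares the pair after LPS (neutrophils minus Ym1- monocytes), and dashed lines the medians of all genes (-0.79 and -0.74). All symbols lie below 0, from -5.84 (Mrpl52, naïve) to -0.09 (Mrpl53, naïve), and the Mrpl52 symbols are the farthest apart.

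Both lineage comparisons use different libraries, so their values can be set against each other. Over the 76 genes r was 0.69 and rho 0.84, and without Mrpl52 they were 0.87 and 0.88. Over 10397 genes r was 0.88 and rho 0.89, so that the members were ordered alike in both pairs to much the same degree as genes in general.

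The next comparison was that of LPS and naïve neutrophils. Most members were higher after LPS: 63 of 76 had a higher FPKM, and the median gene was at 154% of the naïve level. The median log2 difference was 0.51 over 75 genes that passed the limit of 1 FPKM (Mrps6 did not), against 0.07 over 9583 genes. At least 2-fold higher were 12 of 75 (16%), against 8.96% of all genes, and 0 were at least 2-fold lower, against 5.35%. Of all genes, 54.3% were above 0. With TPM 60 of the 76 members were above 0, and Mrpl36, Mrpl47 and Mrpl49 were not.

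Mrpl52 differed most, from 0.943 FPKM in naïve to 61.8 in LPS neutrophils, a ratio of 65.5. The interval of the LPS value (53.5 to 70.9 FPKM) is far above that of the naïve value. Mrps28 followed with 0.758 and 5.24 FPKM, a ratio of 6.91 from about 6 and 32 fragments. Mrpl54, a mitochondria-specific large-subunit protein, had 10.5 and 27.7 FPKM, and Mrps18b had 2.08 and 6.67.

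Mrps5 and Mrps7, small-subunit proteins with bacterial counterparts, were at 1.995 and 4.12 FPKM in naïve and at 5.76 and 10.3 FPKM in LPS neutrophils. Mrpl42 (11.3 and 26.1 FPKM) and Mrps36 (3.65 and 9.24 FPKM) were also over 2-fold higher. Several genes with the widest lineage gap were thus among those with the largest LPS difference, but both values share the naïve neutrophil library.

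In the other direction stood Mrpl23, which lines the exit tunnel, with 28.8 FPKM in naïve and 14.98 in LPS neutrophils (intervals 24.9 to 33.3 and 11.9 to 18.7). Reads of Mrpl23 may be shared with its near-identical pseudogene Mrpl23-ps1. Mrps25 was at 8.43 and 6.21 FPKM, Mrpl53 at 19.8 and 15.03, Mrpl14 at 23.1 and 17.8, and Mrps15 at 35.03 and 28.1. The overlap of Mrpl53 with Gm42688 named above applies here too. For Mrps25, 69.8% of the exon bases are shared with Nr2c2 on the other strand. Mrps26, Mrpl33 and Mrps35 were lower by smaller margins (-0.27, -0.20 and -0.16 in log2 units).

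Other gene sets differed between the same 2 libraries. The 4 measured azurophil granule genes, which mark early granulocyte stages, were all at least 2-fold higher in LPS neutrophils, and their summed level was 678 against 37.96 FPKM. Mpo, for myeloperoxidase, was at 119 against 9.77 FPKM. Of 15 genes of cycling cells 9 were at least 2-fold higher and all 15 were above 0 (summed level 606 against 275 FPKM), and none of either list was at 0 in either library. Of 6 monocyte markers 4 passed the limit of 1 FPKM, of which 3 were above 0 and 1, Csf1r, was at least 2-fold lower (summed level of the list 1974 against 1707 FPKM). Of 4 platelet genes 3 were at least 2-fold lower (summed level 4.99 against 50.96 FPKM), as were both erythroid genes that passed the limit, of 7 listed (7.22 against 25.1 FPKM), and both eosinophil genes, of 3 listed (0.449 against 5.27 FPKM). Their part in the members' difference was not tested.

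In monocytes, Ym1- cells after LPS were compared with naïve cells, both being Venus-. After LPS 74 of 76 genes were higher, and the median gene was at 150% of the naïve level. The median log2 difference was 0.54, against -0.00 over 10714 genes. At least 2-fold higher on this scale were 2 of 76 (2.63%), against 2.86% of all genes, and 0 were at least 2-fold lower, against 4.72%. The share past 2-fold was therefore near the background, while 97.4% of the members and 49.9% of all genes were above 0.

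Mrps18b, a paralogue of bacterial S18 that was listed here as mitochondria-specific, had 22.9 FPKM in naïve and 57.4 in Ym1- monocytes. Mrpl16, a core large-subunit protein, had 19.2 and 44.6. These were the 2 genes past 2-fold. Mrpl54 (59.5 and 119 FPKM), Mrps28 (24.1 and 47.8) and Mrpl12 (52.4 and 103) came next. Mrps5 (19.3 and 38.05 FPKM), Mrpl38 (11.3 and 22.7) and Mrps22, of the small subunit (13.4 and 26.2), followed. The exceptions were Mrps25 (15.1 and 13.2 FPKM) and Mrpl24 (44.9 and 43.9 FPKM). Mrpl24 shares 26.3% of its exon bases with Rrnad1 and Mrps25 shares 69.8% with Nr2c2, both on the other strand. All 53 members without such overlap or a near-identical copy were above 0, so both exceptions are overlapping genes. Of the cycling genes 3 of 15 were at least 2-fold higher and 14 above 0 (summed level 2468 against 1523 FPKM). Both eosinophil genes that passed the limit, of 3 listed, were at least 2-fold higher (29.4 against 0.240 FPKM summed), and in naïve monocytes Epx and Ccr3 were at 0. Both erythroid genes that passed, of 7 listed, and both platelet genes that passed, of 4, were at least 2-fold lower (2.90 against 20.1 and 0.620 against 11.7 FPKM summed). In Ym1- monocytes 3 erythroid and 2 platelet genes were at 0. Of 4 azurophil granule genes 2 were at least 2-fold lower and 2 above 0 (1837 against 2432 FPKM summed). Of 8 neutrophil markers 3 were at least 2-fold lower and 4 above 0 (1919 against 1192 FPKM). Of 6 monocyte markers 1 was at least 2-fold lower and all 6 were below 0 (4629 against 5019 FPKM). The part of these cells and stages in the members' difference was not tested.

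Set side by side, the LPS differences of the 2 lineages used different libraries. Higher in both were 63 of 76 genes, and 11 were higher in Ym1- monocytes and lower in neutrophils. Lower in both were 2 (Mrps25 and Mrpl24, with the overlaps named above). Taken singly, 54.3% of all genes were above 0 in neutrophils and 49.9% in monocytes. Shares of all genes with like or opposite signs were not computed, so these counts have no background. Over 75 genes r was 0.28 and rho 0.50 (0.54 and 0.54 without Mrpl52), and over 9074 genes r was 0.41 and rho 0.54. The medians were nearly equal (0.51 and 0.54), but the SD between members was 0.71 in neutrophils and 0.29 in monocytes.

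**Figure D3:**
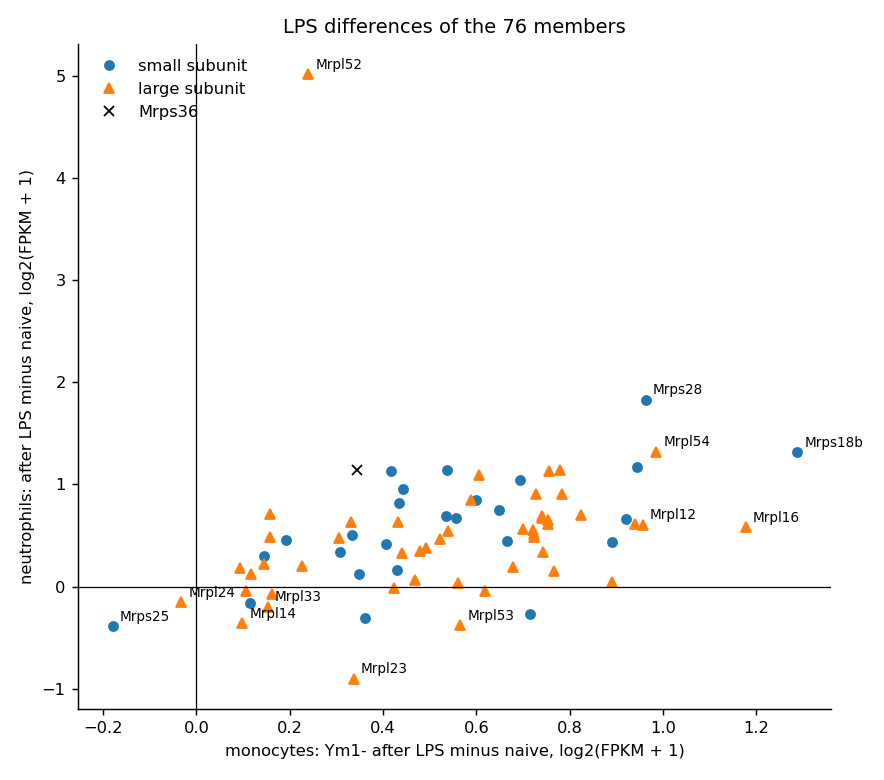
LPS difference in log2(FPKM + 1) in monocytes (Ym1- after LPS minus naïve, x axis) and neutrophils (LPS minus naïve, y axis) for the 76 genes, with symbols by subunit. At the upper right lie 63 genes, 11 lie at the lower right, and Mrps25 and Mrpl24 at the lower left; Mrpl52 is at 5.01 on the y axis.

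The comparison of Ym1+ with Ym1- monocytes, both taken 48 h after LPS, showed a small difference of 1 sign. In Ym1+ monocytes 74 of 76 genes were lower, at a median of 81.5% of the Ym1- level. The median log2 difference was -0.28, against -0.06 over 10489 genes, of which 58.1% were below 0. None was 2-fold apart: 0 were at least 2-fold higher, against 1.38% of all genes, and 0 lower, against 1.18%. With TPM or median-of-ratios scaling 71 genes remained below 0, and Mrpl30, Mrpl48 and Mrps25 were above it.

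The largest difference was that of Mrpl38, at 52.7% of the Ym1- level (11.9 against 22.7 FPKM). Mrps6 was at 61.0%, Mrps18b at 63.1%, Mrps5 at 63.6% (24.2 against 38.05 FPKM) and Mrpl12 at 65.6%. For Mrps6, with the overlap named above, the value rests on about 55 and 41 fragments. Its intervals in Ym1+ and Ym1- monocytes overlap (5.08 to 8.78 and 8.08 to 15.3 FPKM). Mrps22 (64.1%), Mrpl36 (69.8%) and Mrpl53 (70.6%, with the overlap named above) completed the 8 genes with the largest difference. The exceptions were Mrps17 (29.9 against 28.2 FPKM) and Mrps16 (67.2 against 63.7), both small-subunit proteins of bacterial origin. The Ym1- library had 44.7% of the depth of the Ym1+ library.

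Markers of another cell type also differed between these 2 libraries. On the side of Ym1+ monocytes, 7 of 8 neutrophil markers exceeded the other library at least 2-fold, with a summed level of 13997 against 1919 FPKM, and none was at 0. The eosinophil genes Prg2 and Epx were at 27.97 and 1.37 FPKM in Ym1- monocytes and both at 0 in Ym1+ monocytes. Both erythroid genes that passed the limit of 1 FPKM and Pf4, the platelet gene that passed, exceeded the Ym1- library at least 2-fold (17.5 against 2.90 and 4.09 against 0.620 FPKM summed over both lists). Cycling genes were at a summed 2233 against 2468 FPKM. Their part in the members' difference was not tested.

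Against naïve monocytes, Ym1+ monocytes lay in between. Higher than naïve were 63 of 76 genes, against 44.1% of all genes. The members' median was 118% of the naïve level. By median-of-ratios scaling 68 members and by TPM 62 were higher. The median log2 difference was 0.23, against -0.06 over 10698 genes. Again 0 of 76 were at least 2-fold higher, against 2.59% of all genes, and 0 at least 2-fold lower, against 4.51%. Mrpl54 (59.5 FPKM in naïve and 105 in Ym1+) and Mrpl16 (19.2 and 32.1) had the largest differences. Mrps18b, Mrpl27, Mrps28, Mrpl45, Mrpl40 and Mrpl51 followed, between 0.57 and 0.64 log2 units. Below their naïve level were Mrps35 (27.8 and 22.9 FPKM), Mrps25 (15.1 and 13.03, with the overlap named above) and Mrpl50 (10.2 and 8.80). By smaller margins Mrpl24, Mrpl14, Mrpl9, Mrps31 and Mrpl34 were lower too (-0.16 to -0.09). Of the 15 cycling genes all were above 0 and 1 was at least 2-fold higher (summed level 2233 against 1523 FPKM), 7 of 8 neutrophil markers were at least 2-fold higher (13997 against 1192 FPKM), and none of either list was at 0 in either library. Of 6 monocyte markers 2 were at least 2-fold lower and none was above 0 (4419 against 5019 FPKM). Their part in the members' difference was not tested. The comparison shares its naïve monocyte library with the naïve lineage comparison and with that of Ym1- cells, and its Ym1+ library with the comparison of Ym1+ and Ym1- cells.

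Other nuclear-encoded gene families give a measure within each library. The cytosolic ribosomal proteins build the ribosome of the cytoplasm, and the respiratory chain genes encode the subunits that join the products of the mitoribosome. In naïve neutrophils the cytosolic set was lower than in naïve monocytes by a median of -2.66 log2 units (77 of 78 genes at least 2-fold lower), the respiratory chain by -1.16 (52 of 76) and the mitoribosome by -1.64 (58 of 76), against -0.79 and 42.7% for all genes. The mitoribosome thus stood between both families. After LPS, neutrophils differed from Ym1- monocytes by -1.73, -1.11 and -1.66 for the same families, against -0.74 for all genes.

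These values translate into ratios that no scaling of a library can alter. The summed FPKM of the cytosolic ribosomal proteins was 29.96 times that of the mitochondrial ones in naïve monocytes, 24.8 times in Ym1- and 23.9 times in Ym1+ cells. It was 12.5 times in naïve neutrophils and 22.3 times in LPS neutrophils. Naïve neutrophils were the library apart. By medians the ratio was 35.8, 27.6 and 27.7 in the monocytes, 16.9 in naïve neutrophils and 36.3 in LPS neutrophils. For the respiratory chain the ratio of sums was 4.22, 4.16 and 4.26 in naïve, Ym1- and Ym1+ monocytes, and it was 5.02 in naïve and 5.59 in LPS neutrophils. By medians the respiratory chain ratio was 3.86, 3.84 and 4.10 in the same monocytes, and 6.72 and 7.68 in naïve and LPS neutrophils. By either measure it was close together over the monocytes and higher in both neutrophil libraries, with a wider gap by medians.

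**Figure D4:**
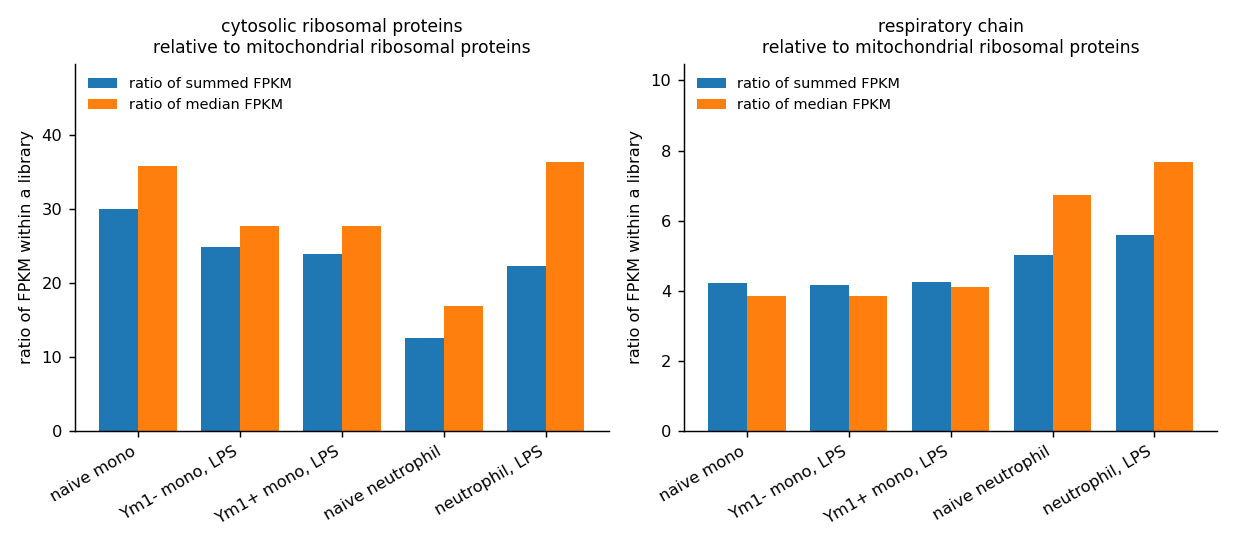
Ratio of the summed (blue) and median (orange) FPKM of cytosolic ribosomal protein genes (left) and respiratory chain genes (right) to that of the mitochondrial ribosomal protein genes on the y axis, in the 5 libraries on the x axis. The left ratio of sums is lowest in naïve neutrophils (12.5) and the right one is higher in neutrophils (5.02 and 5.59) than in monocytes (4.16 to 4.26).

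With LPS in neutrophils the cytosolic ribosomal proteins were higher by a median of 1.21 (48 of 78 genes at least 2-fold, 61.5%), the mitochondrial ones by 0.51 and the respiratory chain by 0.53 (10 of 75, 13.3%). Of all genes 8.96% were at least 2-fold higher, with a median of 0.07, so that the respiratory chain count lay near the background. In monocytes the order was another one: 0.24 for the cytosolic, 0.54 for the mitochondrial and 0.51 for the respiratory chain genes. In Ym1+ against Ym1- monocytes the medians were -0.32, -0.28 and -0.23. Against naïve monocytes, Ym1+ monocytes showed -0.09, 0.23 and 0.27.

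**Figure D5:**
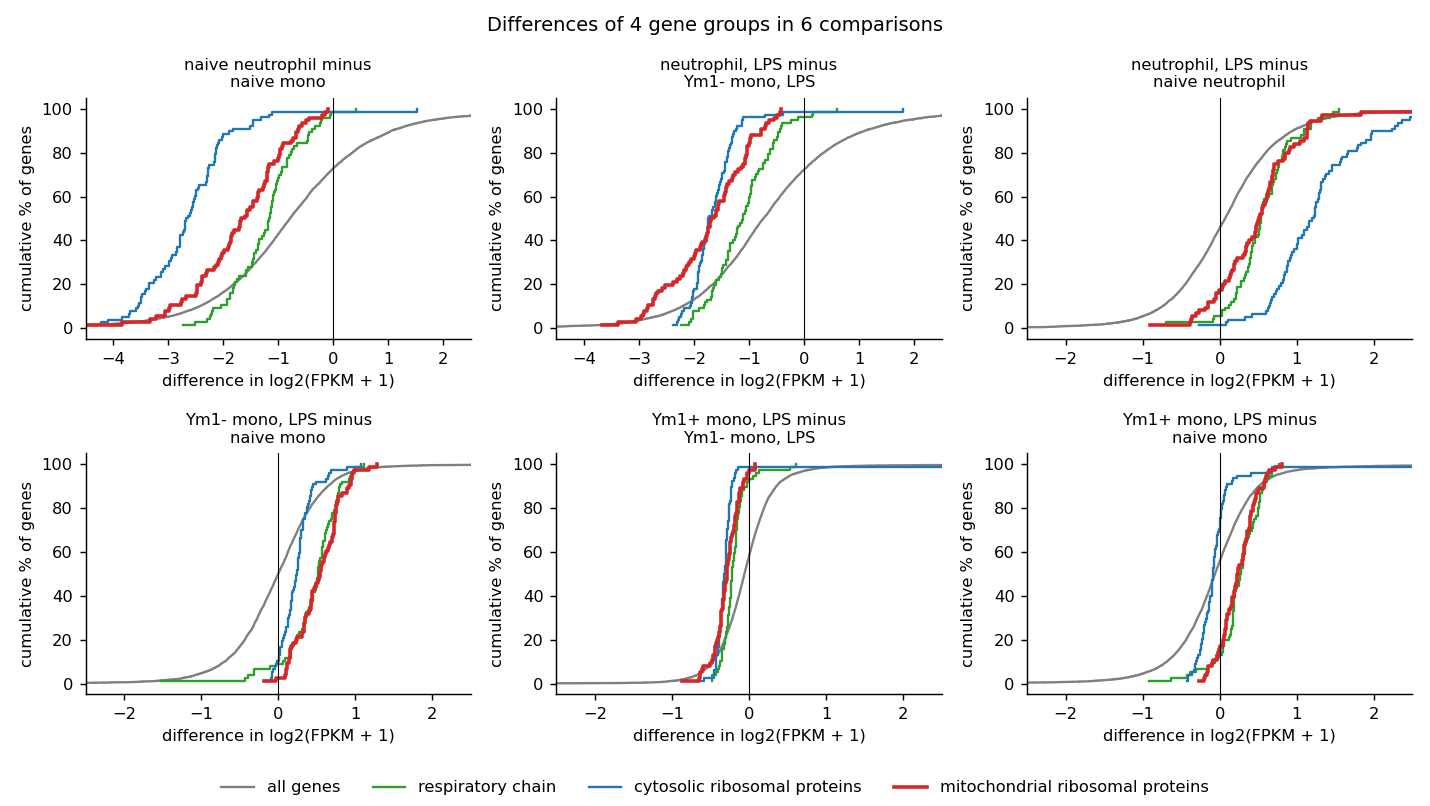
Cumulative share of genes (y axis, %) by difference in log2(FPKM + 1) (x axis) in 6 comparisons, for the mitochondrial ribosomal proteins (red), cytosolic ribosomal proteins (blue), respiratory chain (green) and all genes with at least 1 FPKM in either library (grey); values beyond the x axis are not drawn. The red line lies between blue and green for naïve cells (medians -2.66, -1.64 and -1.16), and with green to the right of blue for Ym1- against naïve monocytes (0.54 and 0.51 against 0.24).

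The rest of the machinery was read from lists of genes. The counts for naïve neutrophils against naïve monocytes that follow stand beside 42.7% of all genes at least 2-fold lower, 10.8% at least 2-fold higher and an all-gene median of -0.79. Of 7 other mitoribosome genes, which lack the Mrp symbol pattern, 5 (71.4%) were at least 2-fold lower in naïve neutrophils than in naïve monocytes and 0 higher. Chchd1, a small-subunit protein, was at 44.7 FPKM in naïve monocytes, 75.95 in Ym1-, 65.4 in Ym1+, 10.8 in naïve neutrophils and 21.1 in LPS neutrophils. Aurkaip1, also of the small subunit, was at 47.4, 64.0, 62.3, 43.4 and 41.0 FPKM and so resembled Mrpl33 in its small difference in FPKM. Dap3, the GTP-binding protein of the small subunit, was at 8.73, 17.5, 14.1, 4.98 and 5.02 FPKM.

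Of 10 translation factors 9 were at least 2-fold lower in naïve neutrophils (median -1.65). Tufm, the elongation factor that delivers aminoacyl-tRNA, was at 42.7 FPKM in naïve monocytes, 84.0 in Ym1- and 58.3 in Ym1+ cells and at 9.15 and 16.9 FPKM in naïve and LPS neutrophils. Its partner Tsfm, the exchange factor, was at 13.6, 23.9, 15.5, 1.11 and 2.06 FPKM. Gfm1, the translocase, was the factor past 2-fold in Ym1- against naïve monocytes (15.6 and 35.1 FPKM). Of all genes 2.86% were at least 2-fold higher there. All 10 factors were lower in Ym1+ than in Ym1- monocytes, with a median of -0.30. Of all genes 58.1% were lower there, with a median of -0.06, as were 97.4% of the members.

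Mitochondrial aminoacyl-tRNA synthetases, which charge the tRNAs, had 15 of 18 genes at least 2-fold lower in naïve neutrophils (median -1.64). Tars2 was at 7.47 FPKM in naïve monocytes, 20.05 in Ym1- and 14.2 in Ym1+, and at 1.41 and 3.24 in naïve and LPS neutrophils. Lars2 went another way, with 12.9, 15.2, 28.3, 11.7 and 9.28 FPKM, and was highest in Ym1+ monocytes. Of 21 assembly and rRNA modification genes 15 were at least 2-fold lower in naïve neutrophils and 1 was higher. The latter was Rbfa, the ribosome-binding factor of small-subunit maturation, at 62.4 FPKM in naïve monocytes and 143 in naïve neutrophils. In LPS neutrophils Rbfa was at 83.7 FPKM. The assembly list showed no rise in LPS against naïve neutrophils (median -0.12, 8 of 17 genes above 0). Of all genes 54.3% were above 0 there, with a median of 0.07.

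Of 8 genes for the synthesis of mitochondrial DNA and RNA, 5 (62.5%, against 42.7% of all genes) were at least 2-fold lower in naïve neutrophils. Polrmt, the mitochondrial RNA polymerase, was at 5.68 FPKM in naïve monocytes, 6.97 in Ym1- and 7.24 in Ym1+ cells and at 0.441 and 0.796 in naïve and LPS neutrophils. Lrpprc, which stabilises mitochondrial mRNA, was at 11.9, 14.6, 12.02, 1.14 and 1.74 FPKM. Polg, the DNA polymerase, was at 18.7, 18.7, 20.8, 16.3 and 12.5 FPKM and so differed little on this scale.

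Among 9 regulators of nuclear genes for mitochondria, of which 7 passed the limit of 1 FPKM, 2 were at least 2-fold lower in naïve neutrophils (28.6%, below the 42.7% of all genes). Myc was at 18.6 FPKM in naïve monocytes, 13.8 in Ym1- and 7.22 in Ym1+ cells and at 0.627 and 1.02 in naïve and LPS neutrophils. Pprc1, a coactivator of the PGC-1 family, was at 7.48, 12.2, 6.69, 0.214 and 0.515 FPKM. Of the factors that can bind the motif letters searched above, Myc (E-box) had the wide range just given, and 3 had narrower ones on the FPKM scale. Yy1 was at 39.7 to 46.6 FPKM in all 5 libraries, Gabpa at 10.8 to 26.9 and Nrf1 at 13.7 to 24.4. Ppargc1a was listed at 0 in all 5 libraries.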

How the data were processed

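RNA-seq libraries of 5 sorted bone marrow populations were analysed, with 1 library for each condition, so that no paired or replicate test was possible. According to the labels, total RNA was made into libraries with a SureSelect strand-specific kit and sequenced on an Illumina HiSeq instrument. Cufflinks 2.1.1, TopHat2 2.0.8 and mm9 are listed as tools and build in the processing notes of the submitters, and the authors deposited 1 table of FPKM values for each library. Whether the counting used strand is not stated. Depth is not stated either, and was estimated from the steps between low FPKM values. Counting intervals (95%, exact Poisson) rest on that rough scale and cover counting error only.

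Differences were taken on the scale log2(FPKM + 1), which understates the change of low genes, over genes with FPKM of at least 1 in either library of a pair. Genes at least 2-fold apart on this scale were counted. No p-value was computed. Named were, for each comparison, the 8 members of largest difference in each direction reaching 5 FPKM in 1 of both libraries, the 5 highest and 5 lowest members, and 2 to 4 genes of each list. The members and lists were chosen with earlier results of these data known. Cox4nb matches the symbol pattern of the respiratory chain list but is an endoplasmic reticulum protein and was left out. The lists were small and large subunit, bacterial counterpart and mitochondria-specific, other mitoribosome genes, translation factors, synthetases, assembly, DNA and RNA synthesis, regulators, cytosolic ribosomal proteins, respiratory chain and cell type markers.

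Alternatives were a pseudocount of 0.1, no filter or a limit of 5 FPKM, TPM, median-of-ratios size factors, a 1.5-fold threshold and leaving out members listed at 0. Added after seeing the data were leaving out members that share at least 10% of exon bases with another gene or have a near-identical copy, and those under 20 rough fragments. Overlaps and lengths came from GENCODE M21 (GRCm38) and promoters from RefSeq (GRCm38.p6). Neither is the build of the files, so they were joined by symbol. Python 3.11.15, numpy 2.4.6, pandas 2.3.3, scipy 1.17.1 and matplotlib 3.10.9 were used. The calculation of differences and counts was run on simulated libraries with planted changes and counting error only. These held no shift in composition, so they do not bear on the choice of scaling or on the reported values.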

Additional observations from a re-analysis of the deposited data

Results flagged for a closer look

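For 11 of the 76 genes the sign of the LPS difference was opposite in neutrophils and Ym1- monocytes. These genes were below 0 for LPS minus naïve neutrophils and above 0 for Ym1- minus naïve monocytes. With 1 library per condition the difference was not tested. On the log2(FPKM + 1) scale Mrpl23 was at -0.90 in neutrophils and 0.34 in monocytes, and its reads may be shared with a near-identical pseudogene. Mrpl53 was at -0.38 and 0.57, and 87.97% of its exon bases are shared with Gm42688 on the same strand. Mrpl14 was at -0.36 and 0.10, Mrps15 at -0.31 and 0.36, and Mrps26 at -0.27 and 0.72. Mrpl33 was at -0.20 and 0.15, and Mrps35 at -0.16 and 0.11. The other 4 were near 0 in neutrophils: Mrpl10 at -0.072, Mrpl9 at -0.0447, Mrpl37 at -0.0441 and Mrpl2 at -0.0155. In Ym1- monocytes they were at 0.16, 0.11, 0.62 and 0.42. In Ym1+ minus naïve monocytes, Mrpl14 (-0.15), Mrpl9 (-0.15), Mrpl10 (-0.032), Mrpl23 (-0.021) and Mrps35 were below 0, as in neutrophils. The other genes named here were above 0 there. With median-of-ratios scaling Mrpl10 and Mrpl23 were above 0 in that comparison, and with TPM Mrpl33 was below it. The count of opposite signs was 11 with median-of-ratios scaling and 14 with TPM. The share of opposite signs over all genes was not computed, so the count has no background.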

How the results depend on the processing

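Of 156 alternative values for the medians and shares of members, 48 came from settings that left the members' values as they were, such as leaving out members at 0, of which there were none. Of the other 108 values, 94 stayed close to the values of the report and 14 moved. A median counted as close within a 95% interval taken over the member genes, which are not replicates. A share counted as close if its number of members stayed within a factor of 1.5, or stayed at 0. No median changed sign, and a share cannot. With median-of-ratios scaling 12 and 7 single members turned above 0 in the naïve and LPS lineage comparisons. Scaling moved the lineage comparisons. Over all genes the naïve lineage median of -0.79 became -1.15 with TPM and -0.03 with median-of-ratios scaling, and that after LPS, -0.74, became -1.13 and -0.01. The members' median for naïve neutrophils minus monocytes was then -2.07 (TPM) and -0.86 (median-of-ratios, with 47.4% of members at least 2-fold lower), and after LPS -2.13 and -0.91 (43.4%). The shares of all genes at least 2-fold lower with median-of-ratios scaling were 24.2% and 21.3%. For Ym1+ minus Ym1- monocytes it was -0.22 with median-of-ratios scaling. In LPS against naïve neutrophils 1.32% of members were at least 2-fold lower with TPM, against 7.66% of all genes. A 1.5-fold threshold gave 42.7% higher and 1.33% lower there, against 20.4% and 14.6% of all genes. In Ym1- against naïve monocytes it gave 44.7% higher, against 11.9% of all genes. It gave 7.89% lower in Ym1+ against Ym1-, near the 5.93% of all genes. In Ym1+ against naïve monocytes it gave 6.58% higher, against 7.71% of all genes. Without members that share exon bases or have near-identical copies (53 remained), 1.89% were at least 2-fold higher in Ym1- against naïve monocytes. The share of all genes there was 2.86%. A pseudocount of 0.1 gave 24% (18 of 75) higher in LPS against naïve neutrophils, against 12.6% of all genes. Median-of-ratios scaling gave 3.95% (3 of 76) higher in Ym1- against naïve monocytes, against 2.91% of all genes. Both member shares were 1.5 times those of the report. No paired analysis was possible because each condition has 1 library. Depth limits the lowest genes: 8 members in naïve and 4 in LPS neutrophils had under 20 rough fragments.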
